A study of Mus musculus with 9 samples.

Results

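The genes described here encode the subunits that surround HDAC1 and HDAC2 in their corepressor complexes, and were measured in sorted microglia, the macrophages that live in brain tissue. They were chosen by name and not by any measured value: 39 subunits of the NuRD, Sin3, CoREST, MIER and MiDAC complexes, leaving out the deacetylases themselves. Of these, 38 had a probe set with a single gene symbol, among 22180 genes tested. The exception was Sap18, whose probe sets also carried the symbol of the related gene Sap18b. The cells were isolated by FACS from the brains of female C57Bl/6 mice 24 to 28 weeks old, and RNA was measured on 9 one-colour arrays, 3 per group. The first group was wild type. The second, called FAD, carried transgenes of familial Alzheimer's disease together with floxed alleles of Hdac1 and Hdac2. The third, called FAD DKO, had the same alleles plus Cx3cr1CreERT2, a Cre recombinase that tamoxifen switches on, under control of the fractalkine receptor gene Cx3cr1, which is active in microglia and in other myeloid cells. Mice of all groups received 8 mg of tamoxifen at 6 weeks of age. The genotype of the wild type mice at Hdac1 and Hdac2 is not described further, so FAD and wild type may differ in the floxed alleles as well as in the transgenes, and FAD DKO and FAD differ in the Cre allele as well as in the deletion. The labels do not say whether each array came from 1 animal, so p-values measure the spread among these samples, which may be technical.

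HDAC1 and HDAC2 remove acetyl groups from histones, and they act almost entirely inside larger complexes. Each complex adds its own functions. NuRD couples deacetylation to a nucleosome remodelling ATPase and to a protein of the methyl-DNA binding domain (MBD) family. Sin3 is built on a large scaffold protein bound by sequence-specific repressors, and CoREST pairs the deacetylase with the histone demethylase KDM1A. MIER and MiDAC recruit the deacetylase through ELM2 and SANT domains of the same kind as those in the MTA and RCOR proteins. Several subunits come in paralogues that replace each other in a complex, so the make-up of a complex can vary between cells. In microglia HDAC1 and HDAC2 have been studied in the development of the cells and in models of amyloid disease.

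The 250 bases before the RefSeq start site are given for 3 members, in GRCm38.p6, 5′ to 3′ on the strand of the gene. They are Sap30, the member with the largest difference between groups, its paralogue Sap30l, and Mier2, the other member for which each FAD DKO array lay below each FAD array at an unadjusted p under 0.05. Capitals mark the GC box GGGCGG, the site of Sp and Klf factors, or its reverse complement CCGCCC.
Sap30 (chr8:57487861-57488110, minus strand): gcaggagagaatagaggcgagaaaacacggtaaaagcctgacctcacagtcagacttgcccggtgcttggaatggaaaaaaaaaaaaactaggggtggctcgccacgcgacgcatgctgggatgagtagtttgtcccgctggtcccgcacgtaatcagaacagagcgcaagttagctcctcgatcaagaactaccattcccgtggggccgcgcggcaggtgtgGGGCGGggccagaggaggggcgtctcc
Sap30l (chr11:57801387-57801636, plus strand): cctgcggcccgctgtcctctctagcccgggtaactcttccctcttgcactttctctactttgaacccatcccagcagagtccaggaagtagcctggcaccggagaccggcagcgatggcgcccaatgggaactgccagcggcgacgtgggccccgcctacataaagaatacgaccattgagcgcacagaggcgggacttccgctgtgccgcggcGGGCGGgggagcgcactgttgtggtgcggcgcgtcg
Mier2 (chr10:79555129-79555378, minus strand): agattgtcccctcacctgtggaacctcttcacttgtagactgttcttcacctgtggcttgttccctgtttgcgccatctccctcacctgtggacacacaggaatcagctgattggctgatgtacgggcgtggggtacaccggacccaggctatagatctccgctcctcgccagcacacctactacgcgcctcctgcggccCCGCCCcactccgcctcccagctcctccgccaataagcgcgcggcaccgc

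Each of the 3 windows held 1 GC box, which ended 21 bases before the start site in Sap30, 30 in Sap30l and 44 in Mier2. GC made up 58.0% of the Sap30 window, 65.2% of that of Sap30l and 61.6% of that of Mier2, against a median of 52.4% over 32851 windows of the same length. RefSeq promoters were matched by symbol for 32 of the 38 members. On either strand, a GC box was found for 28 of these 32, against 35.4% of 27025 genes with such a window, a set that also holds genes microglia do not use. The CCAAT box (CCAAT) was found for 20 of 32 members and for 37.5% of all genes. The cAMP response element TGACGTCA stood before 1 member, Dnttip1, and before 1.77% of all genes. The AP-1 site TGANTCA stood before 1 member, Gatad2a, and before 7.82% of all genes. The Sap30 window held no CCAAT box and neither of the last 2 sites. A match of this kind describes the letters of the window, and no binding was measured.

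Of the 38 measured members, 36 had a mean no lower than the median of all values, 5.37 on the deposited log2 scale. The 2 below it were Chd5, the CHD remodeller best known from neurons, at 5.12, and Rcor2, the CoREST scaffold best known from embryonic and neural progenitor cells, at 5.05, so a change in either would be hard to see. The array medians lay between 5.346 and 5.398. All 9 measured microglia markers, among them Cx3cr1, P2ry12 and Tmem119, had means over the arrays between 9.40 and 12.07, while means of neuron markers lay between 4.04 and 5.50 and lymphocyte markers between 3.18 and 5.97. Gene means ran from 3.86 to 5.87 for the oligodendrocyte lineage, from 4.13 to 6.39 for endothelial and mural cells, from 4.34 to 6.05 for perivascular and border macrophages, and from 4.55 to 7.55 for astrocytes, where Slc1a3 was the highest. Means of the 10 monocyte and neutrophil markers ran from 4.99 to 10.27, with S100a8 (10.27) and S100a9 (9.76) above the microglia marker Tmem119 (9.40). These 10 markers set arrays apart within groups, with a mean of 6.24, 8.04 and 7.32 in the 3 FAD DKO arrays. It was 6.66, 7.32 and 7.41 for wild type, and 7.48, 7.43 and 7.32 for FAD. Members varied little among arrays of a group, with a median SD within groups of 0.0824 (log2), against 0.106 over the 11465 genes at or above the median signal. In 20 of the 38 members (52.6%) at least 2 arrays held exactly the same deposited value. The share was 60.1% of all genes and 55.1% of those at or above the median signal. In 8 members (21.1%) 4 or more arrays did so, beside 17.7% of all genes and 13.9% of those at or above the median signal. The SD within a group can then be 0, as for Rcor2, which read 5.03 in each FAD array.

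The deacetylases set the scale for the differences below. Hdac1 read 8.07, 8.65 and 8.60 for wild type, 8.03, 8.14 and 8.19 for FAD, and 7.63, 7.41 and 7.64 for FAD DKO. All FAD DKO arrays were lower than the lowest array of the other groups, and FAD overlapped wild type. Hdac2 read 8.28, 8.39 and 8.22 for wild type, 8.56, 8.52 and 8.36 for FAD, and 7.89, 7.62 and 7.90 for FAD DKO. FAD DKO minus FAD was -0.56 (95% interval -0.89 to -0.23) for Hdac1 and -0.68 (-0.90 to -0.45) for Hdac2, at adjusted p of 0.376 and 0.159 in limma, so neither was called over all genes. FAD minus wild type was -0.32 (-0.65 to 0.02) for Hdac1 and 0.19 (-0.04 to 0.41) for Hdac2, at adjusted p of 0.620 and 0.667 in limma. Where the probes lie relative to the deleted exons is not known here, so they may not check the deletion. In bulk RNA fewer cells with a transcript and less transcript per cell cannot be told apart.

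**Figure D1:**
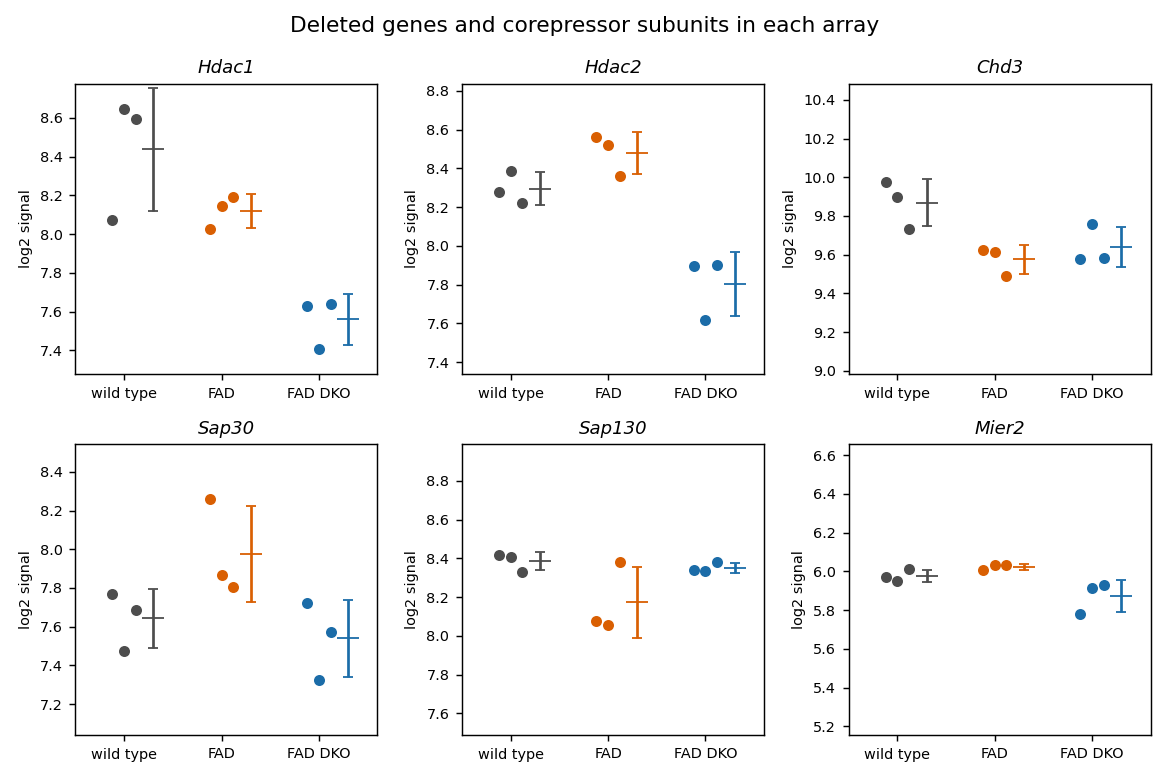
Log2 signal (y axis, 1.5 log2 units in each panel) of Hdac1, Hdac2, Chd3, Sap30, Sap130 and Mier2 in each array (points), by group (x axis), with the group mean and SD beside the points (n = 3). FAD DKO arrays lie below all others for both deacetylases, wild type arrays lie above all FAD arrays for Chd3, and FAD arrays lie above all others for Sap30.

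Setting FAD beside wild type asks whether the transcripts of the complexes differ in this Alzheimer's disease model without deletion of Hdac1 and Hdac2. No subunit passed an adjusted p under 0.05 in limma: 0 of 38 were called, beside 0.0406% of all genes. Chd3, a NuRD remodeller, and Sap130, a Sin3 subunit, were lower in FAD at an unadjusted p under 0.05, and Sap30, another Sin3 subunit, was higher. These 3 are 7.89% of the members, beside 8.43% of all genes, so the share is near the background. The groups did not overlap for 4 members (10.5%), Chd3, Rbbp4, Phf21a and Sap30, beside 11.8% of all genes. The median difference was -0.01 over the members and -0.01 over all genes, and 15 members lay above 0 and 23 below, beside 47.9% of all genes above 0.

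Setting FAD DKO beside FAD asks whether the genotype meant to delete both deacetylase genes goes with other levels of the subunits that the deacetylases bind. Again 0 of 38 members were called, beside 0.0225% of all genes. Sap30 and Mier2 were lower in FAD DKO at an unadjusted p under 0.05, that is 5.26% of the members beside 8.10% of all genes. The groups did not overlap for 5 members (13.2%, beside 11.9% of all genes): Sap30, Mier2, Rbbp7 and Rcor1 were below FAD, and Mta1 was above it. Among the members, 20 lay above 0 (53.2% of all genes did) and 18 below, with a median of 0.01, as over all genes. The 95% interval of the difference lay within a 1.5-fold change either way for 37 of the 38 members, Sap30 being the exception, beside 87.5% of all genes and 93.4% of genes at or above the median signal. For Hdac1 and Hdac2 it did not. This comparison and the one before it share the FAD arrays, which enter them with opposite sign.

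FAD DKO was also set beside wild type, a difference that shares its arrays with the other comparisons but takes none from FAD. Here too 0 members were called, beside 0.140% of all genes. Chd3 was the 1 member at an unadjusted p under 0.05 (2.63%, beside 8.14% of all genes). The groups did not overlap for 3 members (7.89%, beside 11.9%), with Mta1 and Brms1l above wild type and Mier2 below. Differences above 0 were found for 21 members, beside 51.3% of all genes. All 38 intervals lay within a 1.5-fold change, with the lowest bound at -0.43 for Sap30 and the highest at 0.44 for Suds3.

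**Figure D2:**
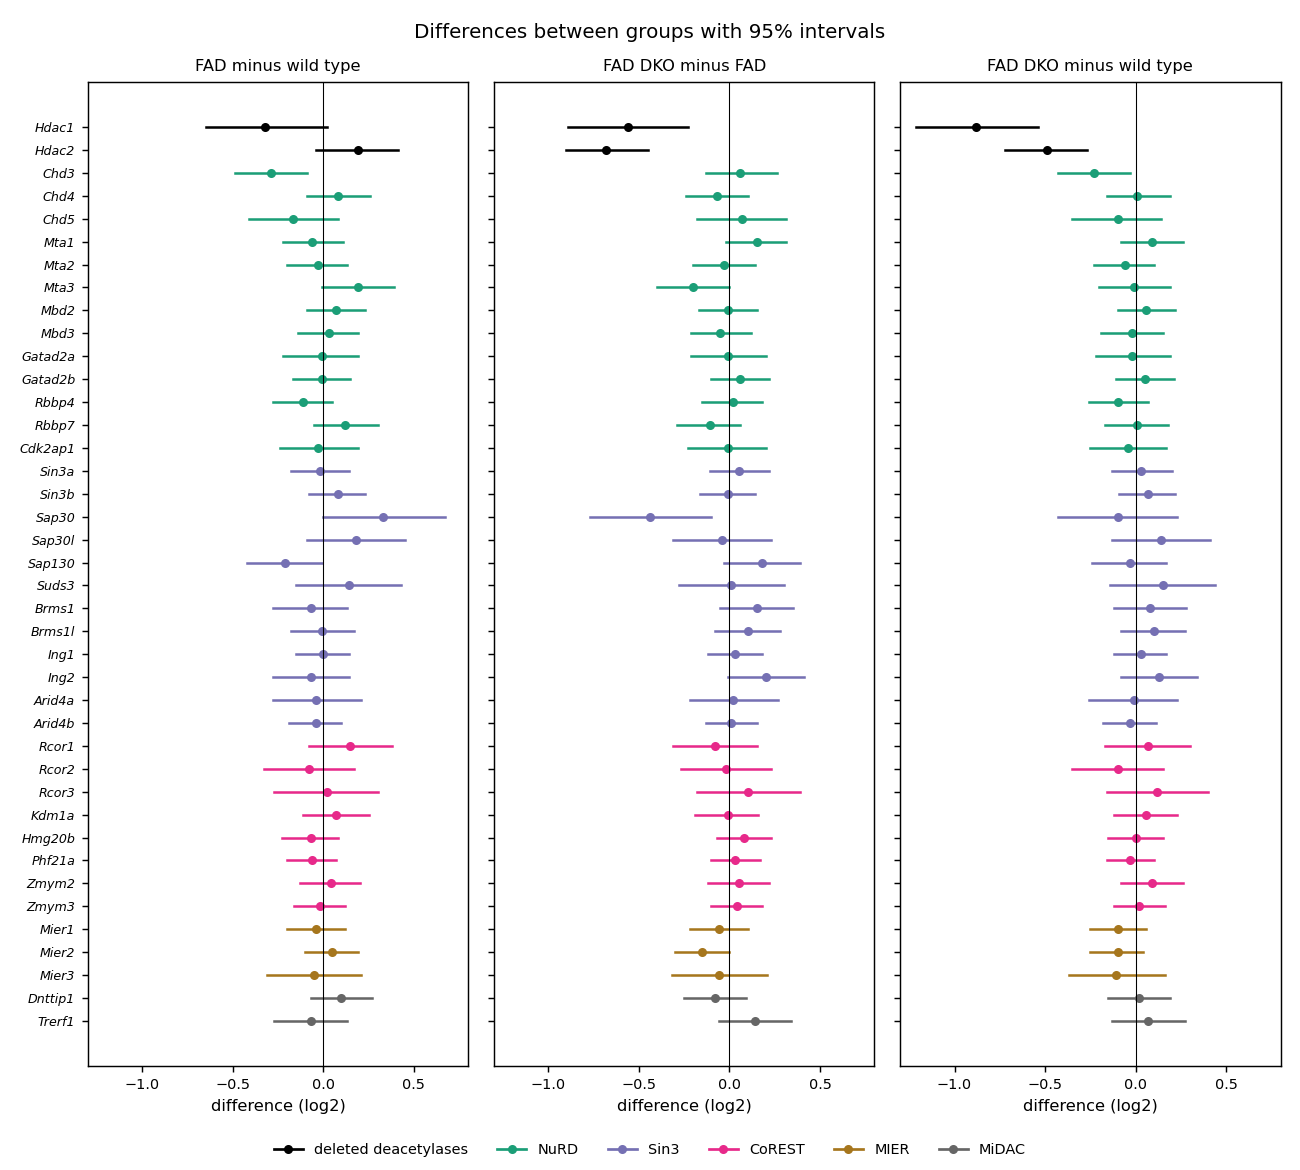
Difference between groups (x axis, log2) with its 95% interval (lines) for Hdac1, Hdac2 and the 38 measured subunits (y axis), coloured by complex, in the 3 comparisons. Intervals of Hdac1 and Hdac2 lie below 0 in both comparisons with FAD DKO, while those of most subunits cross 0, and among subunits only Sap30 has intervals that reach past a 1.5-fold change.

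NuRD was represented by all 13 of its listed genes, and its median difference was -0.01 for FAD against wild type, -0.01 for FAD DKO against FAD and -0.02 for FAD DKO against wild type. Its remodelling ATPases are alternative subunits that slide nucleosomes. Chd3 read 9.98, 9.90 and 9.74 for wild type, 9.63, 9.61 and 9.49 for FAD, and 9.58, 9.76 and 9.58 for FAD DKO. Every FAD array was below every wild type array, and 1 FAD DKO array, replicate 2, reached into the wild type range. The mean was 9.87 ± 0.122 for wild type, 9.58 ± 0.073 for FAD and 9.64 ± 0.104 for FAD DKO (SD, n = 3). FAD minus wild type was -0.29 (SE 0.0874, adjusted p = 0.461 in limma), which is 0.817 times the wild type level. FAD DKO minus wild type was -0.23 (adjusted p = 0.529), and FAD DKO minus FAD was 0.06. The second probe set of Chd3, which was dimmer, gave -0.14 for FAD minus wild type and -0.27 for FAD DKO minus wild type (unadjusted p = 0.158 and 0.0201). Both probe sets thus read lower than wild type in both FAD groups, and they differed on whether FAD or FAD DKO was the lower. Chd4, the main ATPase of NuRD in most cells, stood at 8.41 ± 0.0649 for wild type, 8.50 ± 0.0942 for FAD and 8.43 ± 0.0808 for FAD DKO. Its difference between FAD DKO and FAD was -0.07 (95% interval -0.24 to 0.10).

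The MTA proteins hold the deacetylase in NuRD through their ELM2 and SANT domains. Mta1 was 7.68, 7.68 and 7.62 for wild type, 7.60, 7.54 and 7.68 for FAD, and 7.68, 7.70 and 7.86 for FAD DKO. Each FAD DKO array was above each FAD and wild type array, though the nearest arrays read alike to 2 decimals, and FAD DKO minus FAD was 0.15 (adjusted p = 0.643). Mta3 went the other way, at 7.32, 7.09 and 7.29 for wild type, 7.48, 7.49 and 7.30 for FAD, and 7.21, 7.30 and 7.18 for FAD DKO. Its groups overlapped or touched in each comparison, and FAD DKO minus FAD was -0.20 (95% interval -0.40 to 0.00, adjusted p = 0.615). Mta2 differed by -0.03 in the same comparison, and whether the 3 paralogues differ from each other in response was not tested.

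The MBD family subunits Mbd2 and Mbd3, which define alternative forms of NuRD, differed by -0.01 and -0.05 between FAD DKO and FAD. The GATA-type zinc finger proteins Gatad2a and Gatad2b, which bridge the MBD protein to the remodeller, differed by -0.01 and 0.06. Rbbp4 and Rbbp7 are WD40 proteins that bind histones and serve both NuRD and Sin3. Rbbp4 was 7.62, 7.57 and 7.51 for wild type and 7.50, 7.34 and 7.51 for FAD, a difference of -0.11 (adjusted p = 0.711) with groups that barely missed each other. Its dimmer probe set gave -0.38 (unadjusted p = 0.042 in limma), with groups that overlapped. There FAD replicate 3 (6.78) lay above wild type replicate 3 (6.66). Rbbp7 was 8.10, 7.91 and 7.90 for FAD and 7.80, 7.88 and 7.88 for FAD DKO, a difference of -0.11 (adjusted p = 0.703). The small subunit Cdk2ap1, first known as an inhibitor of CDK2, differed by -0.01 between FAD DKO and FAD and by -0.04 between FAD DKO and wild type. Its dimmer probe set gave 0.11 and 0.35 in these comparisons (unadjusted p = 0.611 and 0.135 in limma).

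Sin3 was measured through 12 of its 13 genes, with medians of -0.01, 0.03 and 0.05 for FAD against wild type, for FAD DKO against FAD and for FAD DKO against wild type. The scaffolds Sin3a and Sin3b, on which the other subunits assemble, differed by 0.05 (95% interval -0.11 to 0.22) and -0.01 (-0.16 to 0.14) between FAD DKO and FAD. Sap30, a small subunit that stabilises the binding of the deacetylase to the scaffold, had the largest difference of any member. It read 7.77, 7.47 and 7.69 for wild type, 8.26, 7.87 and 7.80 for FAD, and 7.72, 7.32 and 7.57 for FAD DKO. FAD was above both other groups in every array, and FAD DKO overlapped wild type. Its mean was 7.64 ± 0.151 for wild type, 7.98 ± 0.247 for FAD and 7.54 ± 0.201 for FAD DKO (SD, n = 3). FAD minus wild type was 0.33 (SE 0.147, adjusted p = 0.592 in limma), or 1.26-fold, and FAD DKO minus FAD was -0.44 (SE 0.147, adjusted p = 0.504), or 0.739-fold. FAD replicate 1 carried a large part of both: without it the values were 0.19 and -0.29, and neither kept an unadjusted p under 0.05. For FAD minus wild type (unadjusted p = 0.049 in limma) 4 of the 9 fits that left out an array kept it. It was also lost with quantile normalization and with the 2 groups compared alone. For FAD DKO minus FAD (unadjusted p = 0.0155 in limma) 7 of 9 kept it, and it was also lost without FAD DKO replicate 2. Like Sap30, the astrocyte markers Slc1a3 (8.09) and Aqp4 (6.22) were at their highest in FAD replicate 1, while Slc1a2 (4.34) was at its lowest there. The mean over all 8 measured astrocyte markers was 5.465 in that array and ran from 5.278 to 5.470 over the 9 arrays. Their median deviation from the gene means was -0.033 in it, and ran from -0.124 to 0.080 over the 9 arrays. The lowest Sap30 value, in FAD DKO replicate 2, was in the array with the most monocyte and neutrophil marker signal (8.04), while the FAD arrays were alike in that signal. The part of either marker signal in the result was not tested.

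Sap30l, which can take the place of Sap30, also had its highest mean in FAD. It stood at 6.63 ± 0.257 for wild type, 6.81 ± 0.0935 for FAD and 6.77 ± 0.0144 for FAD DKO. FAD minus wild type was 0.18 (95% interval -0.09 to 0.45), and FAD DKO minus FAD was -0.04 (-0.31 to 0.23). Whether the paralogues differ in response was not tested. Sap130, a subunit that supports the assembly of the complex on Sin3a, was 8.42, 8.41 and 8.33 for wild type, 8.08, 8.06 and 8.38 for FAD, and 8.34, 8.34 and 8.38 for FAD DKO. FAD replicates 1 and 2 lay below all other arrays, and FAD replicate 3 lay among them. FAD minus wild type was -0.21 (SE 0.0915, adjusted p = 0.588 in limma) and FAD DKO minus FAD was 0.18 (adjusted p = 0.643). Without FAD replicate 3 these values were -0.32 and 0.28, and without FAD replicate 2 they were -0.16 and 0.12. The unadjusted p for FAD minus wild type, 0.0444, stayed under 0.05 in 1 of the 9 fits that left out an array.

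The remaining Sin3 genes gave smaller or more scattered values. Ing2, a reader of methylated histone H3 that brings Sin3 to active promoters, was 6.09, 5.84 and 6.09 for FAD and 6.34, 6.09 and 6.17 for FAD DKO, a difference of 0.20 (adjusted p = 0.631). Its paralogue Ing1 differed by 0.03. Brms1 and Brms1l, coiled-coil subunits named for suppression of metastasis, differed by 0.15 and 0.10, and Brms1l was higher in each FAD DKO array than in each wild type array. Suds3, another subunit that joins the deacetylase to Sin3, had a wide spread in FAD (7.41 ± 0.258) and differed by 0.01. The large DNA-binding subunits Arid4a and Arid4b differed by 0.02 and 0.01. FAD had the lowest of the 3 group means in 8 of the 12 Sin3 genes and the highest in 3. Over all 38 members it was lowest in 17 (44.7%, beside 36.5% of all genes) and highest in 12 (31.6%, beside 31.1%).

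**Figure D3:**
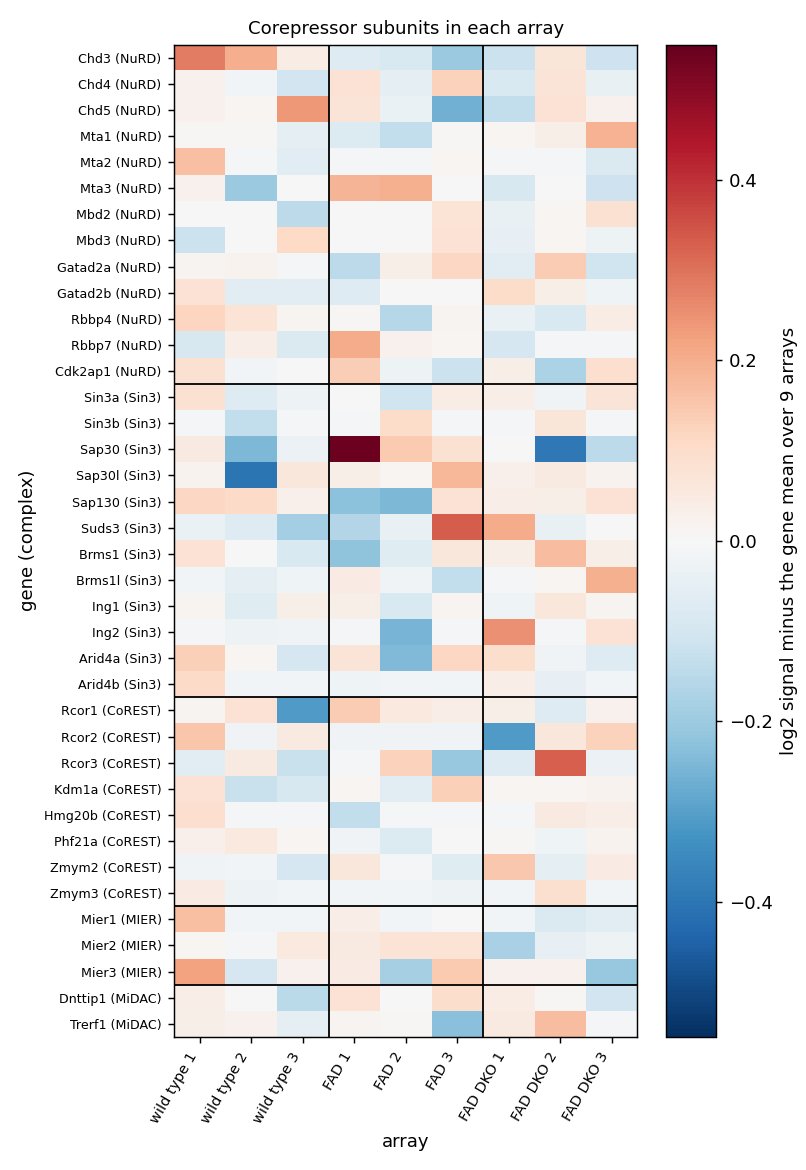
Log2 signal minus the mean of the gene over the 9 arrays (colour) for the 38 subunits (y axis, complex in brackets) in each array (x axis, groups parted by vertical lines). Sap30 in FAD replicate 1 is the darkest cell, and no block of a complex changes colour as a whole between groups.

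CoREST was measured through 8 genes with medians of 0.00, 0.04 and 0.04 in the same order of comparisons, and none of its members had an unadjusted p under 0.05. Kdm1a, the demethylase of histone H3 lysine residues that gives the complex its second enzyme, was 7.93, 7.86 and 8.05 for FAD and 7.93, 7.93 and 7.94 for FAD DKO. The difference was -0.01 (95% interval -0.19 to 0.16). The scaffold Rcor1, which holds the demethylase and the deacetylase together, was 7.49, 7.55 and 7.16 for wild type, 7.61, 7.52 and 7.51 for FAD, and 7.50, 7.40 and 7.50 for FAD DKO. FAD DKO lay just below FAD in every array, by -0.08 on average (adjusted p = 0.853), and both overlapped wild type. Rcor3 differed by 0.10 with an interval of -0.18 to 0.39. Phf21a, which reads unmethylated histone H3 tails, was lower in each FAD array than in each wild type array, yet by -0.06 alone (adjusted p = 0.798). The HMG-box subunit Hmg20b and the MYM-type zinc finger proteins Zmym2 and Zmym3 differed by 0.08, 0.05 and 0.04 between FAD DKO and FAD.

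The MIER proteins bind HDAC1 and HDAC2 through an ELM2 and SANT module, and all 3 genes were lower in FAD DKO than in both other groups on average. The differences from FAD were -0.06 for Mier1, -0.15 for Mier2 and -0.06 for Mier3, and those from wild type were -0.10, -0.10 and -0.11. Mier2 read 5.97, 5.95 and 6.01 for wild type, 6.01, 6.03 and 6.03 for FAD, and 5.78, 5.91 and 5.93 for FAD DKO. The FAD DKO arrays were the 3 lowest of all. Its mean over the 9 arrays, 5.96, was above the median of all values but within the range of lymphocyte marker means (3.18 to 5.97). FAD DKO minus FAD was -0.15 (SE 0.0649, adjusted p = 0.611 in limma), and it was -0.10 without FAD DKO replicate 1, the lowest array. The unadjusted p of 0.0469 stayed under 0.05 in 2 of 9 fits that each left out 1 array. With 3 genes and 0 calls the common sign is a description.

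MiDAC, named for its deacetylase activity in mitotic cells, was read through Dnttip1, its dimerising subunit, and Trerf1, a zinc finger subunit. FAD DKO minus FAD was -0.08 for Dnttip1 and 0.14 for Trerf1 (adjusted p = 0.792 and 0.685). Trerf1 stood at 5.47, 5.40 and 5.54 in wild type, FAD and FAD DKO, near the median of all values.

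**Figure D4:**
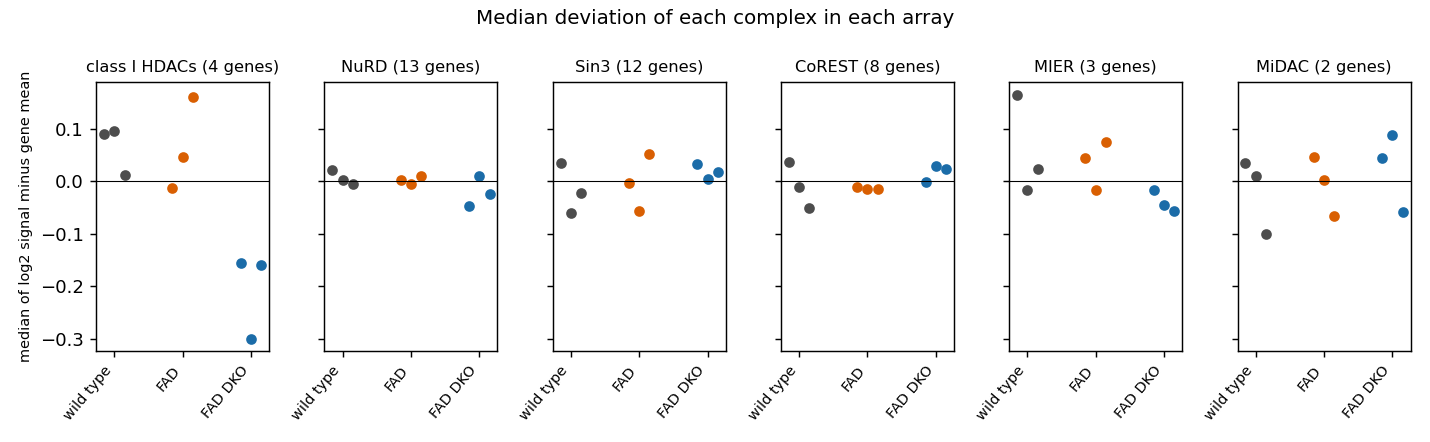
Median over the genes of a complex of log2 signal minus the gene mean (y axis), for class I histone deacetylases and the 5 complexes, in each array (points) by group (x axis). Class I deacetylases, a list of 4 genes that includes the deleted Hdac1 and Hdac2, lie between -0.300 and -0.155 in FAD DKO. The others in that list, Hdac3 and Hdac8, differed by -0.08 and 0.07 between FAD DKO and FAD. Over all arrays the medians of NuRD, Sin3 and CoREST lie between -0.060 and 0.051. Those of MiDAC lie between -0.100 and 0.088, and those of MIER between -0.057 and 0.165.

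Other genes of the pathway were taken from fixed lists, and apart from Hdac1 and Hdac2 they had 50 measured entries. In limma 0 of the 50 were called in any of the 3 comparisons. An unadjusted p under 0.05 was reached by 3 of them between FAD and wild type, 4 between FAD DKO and FAD and 2 between FAD DKO and wild type, beside 8.43%, 8.10% and 8.14% of all genes. The class I deacetylases that were not deleted, Hdac3 and Hdac8, differed by -0.08 (95% interval -0.29 to 0.13) and 0.07 (-0.08 to 0.21) between FAD DKO and FAD. Of the 7 other deacetylases, 1 had an unadjusted p under 0.05 in FAD minus wild type, namely Hdac5 at 0.17 (adjusted p = 0.584), and 0 did in the other comparisons. The 3 measured genes of the NCoR and SMRT complex, which uses HDAC3, lay between -0.11 and 0.08 over the comparisons. Of 16 further subunits and partners, 1 was higher in FAD DKO than in FAD at an unadjusted p under 0.05, Cdk2ap2, a relative of Cdk2ap1, at 0.23 (adjusted p = 0.518). Of 22 DNA-binding factors that recruit the complexes, 3 were higher at that level in FAD DKO than in FAD, where 18 of 22 differences lay above 0 and the list median was 0.10, beside 53.2% above 0 and a median of 0.01 for all genes. The same list had 16 of 22 below 0 and a median of -0.09 between FAD and wild type, and 12 above 0 and a median of 0.02 between FAD DKO and wild type. The FAD arrays enter the first and second of these comparisons, and the median deviation of the list from the gene means was -0.109, -0.029 and 0.011 in them, lowest in FAD replicate 1. The lowest p among them in FAD DKO minus FAD were those of the zinc finger repressors Gfi1 (0.32, adjusted p = 0.536) and Bcl11a (0.21, adjusted p = 0.554). For both, the highest FAD array and the lowest FAD DKO array held the same value (4.89 for Gfi1 and 4.78 for Bcl11a), and their means of 4.85 and 4.78 lay below the median of all values, 5.37. Bcl6, a repressor of inflammatory genes, was higher than wild type in FAD by 0.36 (adjusted p = 0.513) and in FAD DKO by 0.40 (adjusted p = 0.410), with no overlap in either case. Snai2, of the same list, went the other way in FAD minus wild type, at -0.29 (adjusted p = 0.517 in limma) with no overlap. Its mean, 4.69, was below the median of all values. Ctbp1, a further partner, differed by -0.19 in FAD DKO minus wild type (adjusted p = 0.551 in limma), with groups that overlapped.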

How the data were processed

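RNA of sorted microglia was measured on 9 one-colour arrays, 3 per group. The deposited values are log2 signals, which the authors made with RMA (background correction, quantile normalization and probe summary), per the submitters' processing notes; version and annotation are not stated there. Signal over background was not analysed here, and the number of arrays limits the precision. Of 41345 probe sets, 23521 had 1 gene symbol in the platform table and 1814 had several; 16010 were unlisted and unnamed. The probe set with the highest mean stood for a gene (22180 genes; 1082 had several). Gene identifiers of all 38 measured members matched RefSeq.

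Differences come from limma 3.58.1 in R 4.3.3 (lmFit, eBayes, no trend, not robust) over all 9 arrays with a mean per group (8.98 degrees of freedom after moderation). P-values are two-sided, adjusted by Benjamini-Hochberg over all genes tested, and called under 0.05. Intervals are 95% and moderated. P-values of second probe sets come from the same fit over all probe sets. The fit was tested on simulated data. Values in every array are given for members at an unadjusted p under 0.05. They are also given for members whose groups did not overlap and whose means differed by at least 0.3 (log2). Some others, chosen after their values were seen, are given too. The members and lists were chosen with earlier results of these data known. Alternatives were the mean of probe sets, a filter on dim probe sets, quantile normalization, centring of arrays, a trended and robust variance, the 2 groups compared alone, array weights, a replicate block, and fits without each array in turn. Figures used matplotlib 3.10.9.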

Additional observations from a re-analysis of the deposited data

How the results depend on the processing

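Under every alternative 0 members were called in each comparison, of 36 tested with the filter on dim probe sets, which drops Chd5 and Rcor2, and of 38 otherwise, and the lowest adjusted p of Chd3, Sap30, Sap130 or Mier2 was 0.214. Members at an unadjusted p under 0.05 numbered 3 in FAD minus wild type. They numbered 4 with the mean of probe sets, the filter on dim probe sets, a trended and robust variance or array weights. With quantile normalization they numbered 2, and with the 2 groups alone 1 (1 to 4 without 1 array). In FAD DKO minus FAD they numbered 2, and 4 with quantile normalization, a trended and robust variance or array weights (0 to 4 without 1 array), and in FAD DKO minus wild type 1, and 0 with quantile normalization (0 to 1 without 1 array). Over all genes, FAD minus wild type called 9, and 33 with the filter on dim probe sets, 20 with centred arrays, 43 with a trended and robust variance, 22 with array weights and 5 with the 2 groups alone. FAD DKO minus FAD called 5, and 11, 3 (quantile normalization), 12 (trended and robust variance) and 0 (2 groups alone; 0 to 5 without 1 array). FAD DKO minus wild type called 31, and 117 with the filter, 124 with a trended and robust variance, 82 with array weights and 13 with the 2 groups alone (2 to 28 without 1 array). With the replicate number as a block, which the data do not bear out as a pairing (correlations of -0.11 to 0.122 between same-numbered arrays), calls over all genes were 8, 2 and 11, and 2, 2 and 1 members had an unadjusted p under 0.05. Medians by complex moved within hundredths: NuRD to -0.03 with quantile normalization and 0.01 with centred arrays in FAD minus wild type (-0.03 to 0.02 without 1 array), and to 0.02 with quantile normalization in FAD DKO minus FAD (-0.03 to 0.02). CoREST in FAD DKO minus FAD went to 0.06 with quantile normalization and 0.01 with centred arrays (0.00 to 0.04). Without 1 array, MIER ran from -0.07 to 0.04 in FAD minus wild type and from -0.15 to -0.04 in FAD DKO minus FAD, and Sin3 from 0.01 to 0.07 there. In FAD DKO minus wild type NuRD ran from -0.04 to 0.01, Sin3 from 0.00 to 0.08 and CoREST from -0.01 to 0.07. The cause of these shifts was not tested. The intervals do not cover what probe sets near the floor, such as Chd5 and Rcor2, cannot show.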
